A study of Homo sapiens with 18 samples.

Results

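The comparison described here is the response to doxorubicin of RPE-1 cells in which MLX had been knocked down with siRNA: 3 libraries treated with doxorubicin and transfected with siMlx against 3 untreated libraries transfected with siMlx, 6 of the 18 libraries in the series. The members were all genes expressed well enough to be tested, 13676 of 33121 genes listed in the deposited count table. RPE-1 is an hTERT-immortalized line from human retinal pigment epithelium, and all 6 libraries come from that 1 line. The siMlx groups had been transfected 2 days before doxorubicin, and the treated group then received doxorubicin (DXR) at 150 ng/ml for 3 days. The other 12 libraries are cells with a control siRNA (siControl) or with siMondoA, each untreated or treated with DXR, 3 libraries a group. The untreated columns carry the tag D0 and the treated columns the tag D5, which the labels do not explain, so a difference in harvest day and the drug itself cannot be told apart here. The labels do not say that the 3 libraries of a group came from separate cultures, so the spread behind every p-value is that between these libraries and may be technical. Library totals were 17061466 to 19097476 counts in the untreated siMlx group and 18342883 to 20710082 in the DXR group.

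MLX is a basic helix-loop-helix leucine zipper protein. It dimerizes with MondoA (gene MLXIP) or ChREBP (gene MLXIPL), and the dimers bind E-box-like elements and raise genes such as TXNIP and ARRDC4 when glucose phosphates accumulate in the cell. Doxorubicin intercalates into DNA and traps topoisomerase II on broken strands. In cells with working p53 the breaks stabilize p53, which raises the CDK inhibitor p21, and cells that stay arrested can become senescent, with a lowered lamin B1 level and a changed set of secreted proteins. The title of the series names MondoA, senescence, autophagy and mitochondria, and the siMlx arm lowers the partner through which MondoA binds DNA.

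The targeted transcript was checked first. MLX was at 6.79, 7.12 and 7.10 CPM (read counts scaled to a common library size, with TMM factors) in the 3 untreated siMlx libraries and at 5.70, 4.93 and 5.94 CPM in the 3 DXR libraries. With siControl it was at 25.8, 27.4 and 25.7 CPM untreated and 26.4, 26.8 and 26.4 CPM with DXR, so every siMlx library lay below every siControl library. Within the siMlx cells DXR lowered MLX further, by a log2 fold change of -0.35 ± 0.09 (± SE, here and below; adjusted p = 0.00303 by the quasi-likelihood test of edgeR, with Benjamini-Hochberg adjustment over all genes tested), and with siControl the change was 0.01 ± 0.06 (adjusted p = 0.863). The call for MLX was lost with only the siMlx groups in the fit (adjusted p = 0.0519) and without DXR replicate 2 (0.0501). MLXIP, the gene of MondoA, was at 84.8, 76.7 and 69.8 CPM and then at 69.02, 67.5 and 72.6 CPM, a change that did not pass the test (-0.14 ± 0.09, adjusted p = 0.155).

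Markers of the labelled tissue were mostly thin. Of 20 retinal pigment epithelium markers 8 had enough counts to be tested, and the visual cycle genes RPE65, RLBP1 and LRAT were not among them. Of the 8, OTX2 was at a mean of 15.46 CPM and MITF at 19.3 CPM without drug, both transcription factors of this epithelium, and the simple-epithelium keratins KRT8 and KRT18 were at 255 and 134 CPM. With DXR 5 of the 8 rose (62.5%) and 2 fell (25%) at an adjusted p under 0.05 by the edgeR test. Among all tested genes 30.9% rose and 31.2% fell. The 2 keratins, which made up most of the list's summed level, went to 615 and 364 CPM, while OTX2 and the phagocytosis receptor MERTK fell with a log2 change of -0.43 and -1.29. Of the fibroblast markers 8 of 13 were tested and 6 rose (75%). Of the blood and endothelial markers 7 of 15 were tested, with 4 higher (57.1%) and 1 lower (14.3%). Of the neuronal and glial markers 5 of 12 were tested and 3 fell (60%). The summed level of the fibroblast list went from 507 to 645 CPM in the untreated libraries to 915 to 1089 CPM with DXR, and that of the retinal pigment epithelium list from 366 to 459 CPM to 978 to 1058 CPM, while the blood and endothelial list lay between 68.7 and 86.3 CPM and then between 85.5 and 101 CPM, and the neuronal and glial list between 614 and 635 CPM and then between 532 and 564 CPM. The globin genes HBB and HBA1 had no count in the 6 libraries. Their part in the results below was not tested.

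With siMlx, DXR raised 4229 of 13676 genes (30.9%) and lowered 4269 (31.2%) at an adjusted p under 0.05, and 1284 of these rose and 864 fell at least 2-fold. All 3 DXR libraries lay above all 3 untreated libraries for 4472 genes and below them for 4507. The median log2 fold change over all tested genes was 0.00, so the list medians below are read against a value near 0. List counts below are read against the 30.9% that rose and the 31.2% that fell. With siControl the corresponding shares were 28.1% higher and 28.6% lower, and across the 13676 genes the 2 responses, which share no library, had a Pearson correlation of 0.867 (a description, since genes are not independent). The replicate libraries of the 2 siMlx groups were alike, with pairwise correlations of log2 CPM of at least 0.9952.

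**Figure D1:**
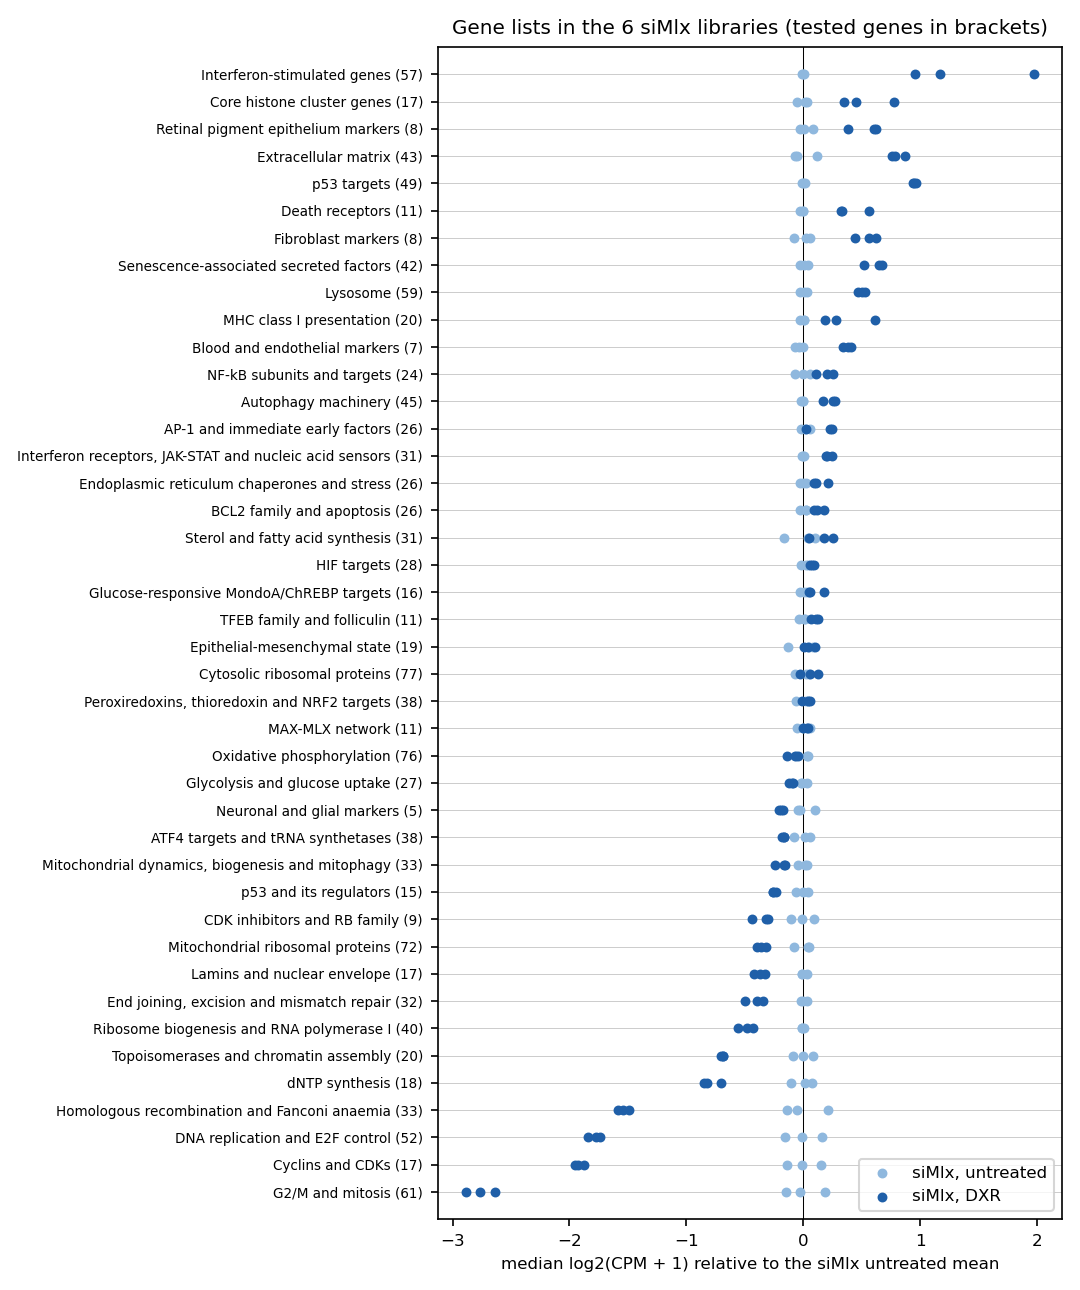
Each row is 1 of the 42 gene lists, with the number of tested members in brackets. Points are the 6 siMlx libraries, and the x axis gives the list's median of log2(CPM + 1) relative to the mean of the 3 untreated libraries. The mitosis list lies lowest, between -2.89 and -2.64 in the DXR libraries, and the interferon list is spread widest, between 0.96 and 1.97.

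Most p53 targets rose. Of 49 tested p53 targets 43 rose and 1 fell, with a median log2 fold change of 0.95. CDKN1A, which encodes the CDK inhibitor p21, was at 581, 529.6 and 548 CPM in the untreated libraries and at 2959, 3446 and 3326 CPM with DXR (log2 2.55 ± 0.08, adjusted p = 1.77e-14). The 2 groups were far apart, and CDKN1A (a gene on chromosome 6 of GRCh38, chr6:36676460-36687339) was also among the 5 genes that gained the most CPM. MDM2, the ubiquitin ligase that turns p53 over and is itself a p53 target, went from 82.7, 75.3 and 80.1 CPM to 289, 347 and 283 CPM (1.95 ± 0.07). RRM2B, the p53-induced subunit of ribonucleotide reductase, rose from a mean of 27.2 to 115 CPM, DRAM1, a lysosomal membrane protein linked to autophagy, from 20.98 to 87.95 CPM, and the antiproliferative gene BTG2 from 4.96 to 50.7 CPM (log2 2.08, 2.07 and 3.36). In the list of the p53 circuit and its regulators, 5 of 15 tested genes rose (33.3%) and 9 fell (60%). The share that rose was near the 30.9% of all tested genes, of which 31.2% fell. Those that fell included the checkpoint kinases CHEK1 (log2 -1.42) and CHEK2 (-1.19) and the deubiquitinase USP28 (-1.33).

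Several p53 targets rose less with siMlx than with siControl. The difference between the 2 responses, tested in the same fit, was called lower for 18 of the 49 targets and higher for 5, where 5.81% of all tested genes were called lower and 6.43% higher. The 5 became 2 or 3 without any of 7 libraries. CDKN1A rose by a log2 of 3.34 with siControl, and the difference was -0.79 ± 0.11 (adjusted p = 6.64e-05). Its untreated level was already higher with siMlx, 553 CPM against 228 CPM, and its DXR level was higher too, 3244 CPM against 2312 CPM. AEN, an exonuclease induced by p53, and CYFIP2, a member of the WAVE actin complex, also started from higher untreated levels with siMlx. AEN was at 56.3 CPM without drug and 77.7 CPM with it, against 37.6 and 85.9 CPM with siControl (difference -0.73 ± 0.09, adjusted p = 1.27e-05). CYFIP2 was at 16.5 and 84.97 CPM, against 4.75 and 60.6 CPM (difference -1.28 ± 0.18, adjusted p = 0.000129). MDM2 went the other way and rose more with siMlx, by a difference of 0.49 ± 0.10 (adjusted p = 0.00333), from a lower untreated level. It was at 82.7, 75.3 and 80.1 CPM untreated and 289, 347 and 283 CPM with DXR under siMlx. With siControl it was at 130, 117 and 125 CPM and then 327, 366 and 335 CPM.

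Genes of the G1 machinery moved in both directions. Of the 9 tested CDK inhibitors and RB family members 4 rose (44.4%) and 5 fell (55.6%), where 30.9% of all tested genes rose and 31.2% fell. CDKN2B, which encodes the INK4 inhibitor p15, was at 44.4, 41.9 and 26.97 CPM without DXR and at 168, 144 and 125 CPM with it (1.95 ± 0.18, adjusted p = 1.19e-08), and CDKN2A, the locus of p16 and ARF, was at 127, 144 and 108 CPM and at 215, 170.1 and 155 CPM (0.51 ± 0.11, adjusted p = 0.000607). The DXR libraries lay above the untreated ones for both genes, by a wide margin for CDKN2B and a narrow one for CDKN2A. CDKN2C, which encodes p18, fell from 58.3, 65.03 and 78.6 CPM to 7.21, 6.97 and 7.08 CPM (-3.25 ± 0.15), and the pocket protein genes RB1 and RBL1 fell with it (-0.36 and -2.06). Among 17 cyclins, CDKs and CDC25 phosphatases 4 rose (23.5%) and 13 fell (76.5%). The 4 that rose act in G1: CCND1 (mean 1524 to 2971 CPM), CCND2 (0.0561, 0 and 0.313 to 1.80, 1.34 and 1.03 CPM), CCND3 (70.3 to 91.8 CPM) and CDK6 (91.5 to 203 CPM). CCND2 rose by a log2 of 3.43, and by 5.41 without untreated replicate 3, which held most of its untreated counts. CDK6, the partner of the D cyclins, rose by a log2 of 1.15 with siMlx and 0.50 with siControl, a difference of 0.65 ± 0.08 (adjusted p = 2.52e-05). Its levels were higher with siControl, at 218, 195 and 192 CPM untreated and 281, 274 and 302 CPM with DXR. The siMlx DXR libraries were at 198, 196 and 216 CPM. The S phase and mitotic cyclins fell together, with log2 fold changes of -3.09 for CCNE2, -3.42 for CCNA2, -2.60 for CCNB1 and -3.35 for CCNB2.

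All 61 tested G2/M and mitosis genes fell, 59 of them at least 2-fold, with a median log2 fold change of -2.99. FOXM1, the transcription factor that raises many of these genes, went from 428, 466 and 493 CPM to 25.2, 32.4 and 29.5 CPM (log2 -3.99 ± 0.15, adjusted p = 1.79e-13). The highest DXR library lay far below the lowest untreated one. PLK1, the polo-like kinase of mitotic entry, went from 173, 193 and 209 CPM to 16.5, 17.8 and 15.3 CPM (-3.54 ± 0.17). KIF20A, a kinesin of cytokinesis, fell with a log2 change of -3.34, PTTG1, which encodes securin, by -2.89, and the kinetochore genes NUF2, SPC24 and SKA3 by -3.49, -3.55 and -3.53. MKI67, the proliferation marker, varied more between libraries: it was at 288, 185 and 278 CPM untreated and at 18.9, 24.9 and 31.9 CPM with DXR (-3.31 ± 0.35, adjusted p = 1.05e-07).

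The mitotic fall was deeper with siMlx than with siControl. The median over the 61 genes was -1.94 with siControl, and the difference was called lower for 44 of the 61 genes and higher for none, beside the 5.81% of all genes called lower. The count was 29 without siControl untreated replicate 2, 28 without siMlx untreated replicate 3 and 24 without siMlx DXR replicate 1. For PLK1 the log2 fold change was -3.54 with siMlx and -2.09 with siControl, a difference of -1.45 ± 0.23 (adjusted p = 0.000315). FOXM1 differed by -1.22 ± 0.19 (adjusted p = 0.000276) and KIF20A by -1.12 ± 0.21 (adjusted p = 0.00144). For MKI67 the difference of -1.20 ± 0.46 did not pass the test (adjusted p = 0.1), and it did with a replicate block (0.0289) and with only the 4 groups of the comparison in the fit (0.00774). In the DXR libraries PLK1 was at a mean of 16.5 CPM with siMlx and 33.4 CPM with siControl, and in the untreated libraries at 192 and 142 CPM. A lower level per cell and fewer cycling cells in a culture cannot be told apart in bulk RNA, here or in the lists that follow.

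**Figure D2:**
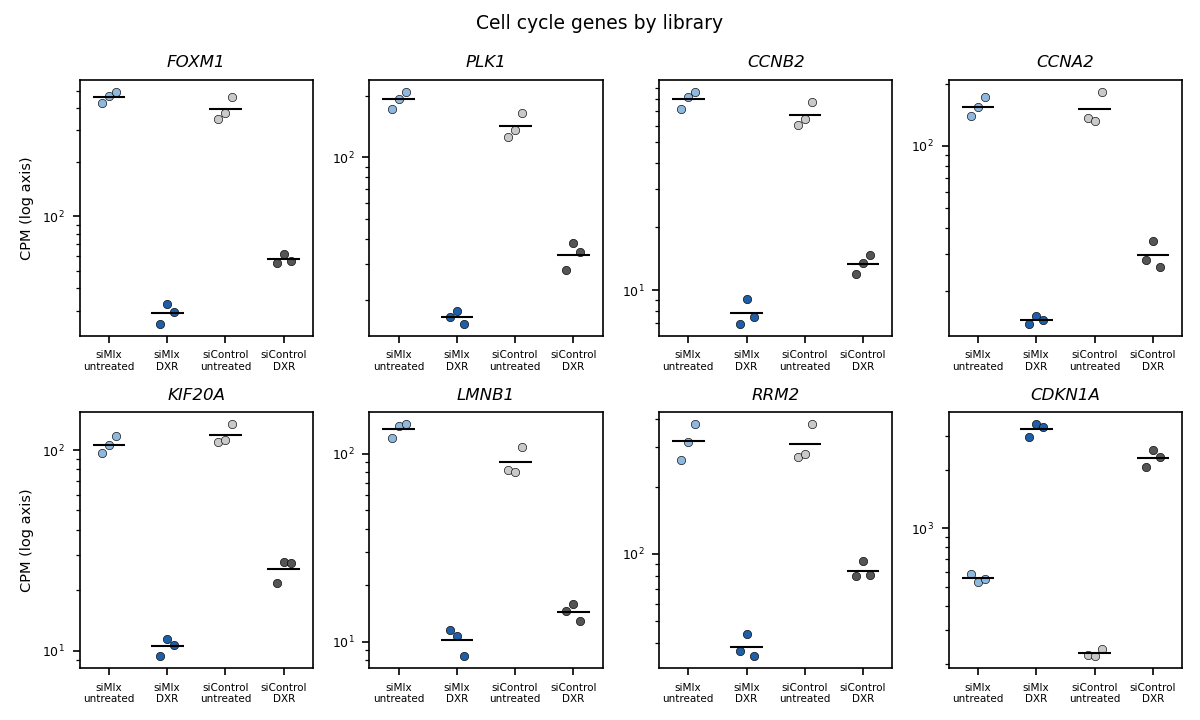
CPM on a log axis of 8 cell cycle genes in the 3 libraries of each siMlx and siControl group (points) with the group mean (bar). The 7 genes that fell lie lower in the 3 siMlx DXR libraries than in the 3 siControl DXR libraries, and CDKN1A lies higher with DXR in both arms.

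Promoters of the mitotic genes are shown because these genes moved as a block. From RefSeq (assembly GRCh38.p14), 300-base windows from 250 bases before to 50 bases after the gene start were matched by symbol to 10523 of the 13676 tested genes and to 51 of the 61 mitosis genes. The cell cycle homology word TTTGAA, on either strand, was in 36 of the 51 windows (70.6%), against 9.82% of the windows of all tested genes and 15.4% of all 27305 windows in the table. The CCAAT box, on either strand and free to overlap, was in 72.5%, against 35.7%, and both words were in 54.9%, against 6.08%. Capitals below mark these words in the 120 bases before the start, 5′ to 3′ on the gene's strand.
PLK1, chr16:23678769-23678888, plus strand: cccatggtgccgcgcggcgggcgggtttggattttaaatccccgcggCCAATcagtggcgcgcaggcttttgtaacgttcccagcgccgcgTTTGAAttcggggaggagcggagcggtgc
CCNB2, chr15:59105026-59105145, plus strand: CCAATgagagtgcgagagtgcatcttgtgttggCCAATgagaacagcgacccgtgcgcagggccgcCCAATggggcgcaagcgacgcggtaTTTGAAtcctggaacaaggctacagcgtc
CCNB1, chr5:69167030-69167149, plus strand: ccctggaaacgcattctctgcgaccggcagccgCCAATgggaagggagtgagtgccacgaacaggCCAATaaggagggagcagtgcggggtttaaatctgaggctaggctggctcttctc
PLK1 holds 1 CCAAT box and 1 TTTGAA, and CCNB2 holds 3 CCAAT boxes and 1 TTTGAA. CCNB1, which fell with a log2 change of -2.60, holds 2 CCAAT boxes and no TTTGAA in these 120 bases. A match is a description of these letters and not a measured binding site.

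DNA replication genes fell as well. All 52 tested genes of replication licensing, fork proteins and E2F control fell, 45 of them at least 2-fold, with a median of -1.96 (siControl -1.55). MCM7, a subunit of the replicative helicase, went from 140.1, 159 and 169.9 CPM to 21.8, 24.8 and 23.5 CPM (-2.74 ± 0.15, adjusted p = 1.66e-11), and MCM4 of the same helicase fell with a log2 change of -2.08. E2F2, an activating E2F factor, was among the 10 largest falls of genes at a mean of 5 CPM or more without drug, from 9.15, 11.1 and 10.6 CPM to 0.756, 0.299 and 0.648 CPM (-4.19 ± 0.38). PRIM1, the catalytic subunit of primase, was also among those 10 (-3.58). UHRF1, which carries DNA methylation through replication, fell with a log2 change of -1.97 and POLE, the leading strand polymerase, by -1.54. Of the 52 genes 16 fell more with siMlx than with siControl by the test of the difference. The origin recognition subunit ORC6 had the smallest of those p-values: it was at 23.03 CPM and then 5.70 CPM with siMlx, and at 12.2 and 7.62 CPM with siControl (difference -1.33 ± 0.25, adjusted p = 0.00137). ASF1B, a histone chaperone, and DTL, a substrate receptor of the CUL4 ligase, differed by -1.20 ± 0.31 and -0.97 ± 0.25. That count rested on single libraries. It was 28 with no filter on low counts, 27 without siControl untreated replicate 3, and 5 to 7 without any of siControl untreated replicates 1 and 2, siMlx untreated replicates 2 and 3, siControl DXR replicates 1 and 2, or siMlx DXR replicates 1 and 3.

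E2F words were looked for in the same windows, since E2F factors are known to bind replication gene promoters. At least 1 of TTTCCCGC, TTTGGCGC, TTTCGCGC and TTTGCCGC, on either strand, was in 23 of the 43 replication genes with a window (53.5%), in 5.34% of the windows of all tested genes and in 3.33% of all windows. These words can overlap one another. Capitals mark them in the 120 bases before the start.
MCM7, chr7:100101398-100101517, minus strand: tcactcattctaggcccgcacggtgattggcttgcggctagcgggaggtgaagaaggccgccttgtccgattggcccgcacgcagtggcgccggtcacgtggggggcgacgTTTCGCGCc
POLE, chr12:132687343-132687462, minus strand: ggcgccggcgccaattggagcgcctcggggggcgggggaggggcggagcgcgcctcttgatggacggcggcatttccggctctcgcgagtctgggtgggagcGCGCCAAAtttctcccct
DTL, chr1:212035628-212035747, plus strand: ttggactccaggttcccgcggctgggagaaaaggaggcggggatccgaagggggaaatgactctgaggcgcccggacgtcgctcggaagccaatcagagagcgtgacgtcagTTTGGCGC
ORC6, chr16:46689539-46689658, plus strand: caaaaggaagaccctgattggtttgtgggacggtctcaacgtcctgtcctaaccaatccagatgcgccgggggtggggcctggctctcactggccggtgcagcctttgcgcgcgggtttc
MCM7, POLE and DTL each hold 1 word, and ORC6 holds none in these 120 bases.

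Genes of nucleotide supply mostly fell. Of 18 tested genes of dNTP synthesis 15 fell and 3 were higher. RRM2, the S phase subunit of ribonucleotide reductase, went from 263, 318 and 381 CPM to 36.9, 44.04 and 34.9 CPM (-3.05 ± 0.20), and thymidine kinase TK1 from 71.8, 84.97 and 84.7 CPM to 10.1, 11.7 and 8.53 CPM (-2.99 ± 0.12). The untreated and DXR libraries did not overlap for either gene. CAD, the first enzyme of pyrimidine synthesis, and PAICS, of purine synthesis, fell with a log2 change of -0.96 and -1.24. Besides RRM2B, SAMHD1, which degrades dNTPs, was higher (0.56 ± 0.24, adjusted p = 0.0476, but 0.334 without DXR replicate 1, 0.0587 to 0.123 without any 1 untreated library and 0.0633 with DESeq2), and DCTD, a deaminase that feeds thymidylate synthesis, rose from 13.2, 12.4 and 11.3 CPM to 26.2, 26.4 and 25.2 CPM (1.07 ± 0.07). DCTD had been at 116 CPM with siControl without drug, and its response differed between the siRNAs by 0.81 ± 0.09 (adjusted p = 4.19e-06).

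Repair genes fell by pathway. Of 33 genes of homologous recombination and the Fanconi anaemia pathway 31 fell and none rose, with a median of -1.72. FANCD2, which is ubiquitinated at crosslinked DNA, went from 27.7, 30.3 and 32.3 CPM to 4.71, 4.58 and 4.10 CPM (-2.75 ± 0.19), with no overlap between the groups. POLQ, the polymerase of microhomology end joining, and the Fanconi ubiquitin-conjugating enzyme UBE2T fell with a log2 change of -2.88 and -2.37. Genes of end joining, excision and mismatch repair moved less: 21 of 32 fell and 6 rose, with a median of -0.44. PARP1, the poly(ADP-ribose) polymerase, fell from 144, 151 and 162 CPM to 62.5, 68.7 and 65.6 CPM (-1.22 ± 0.08), and fell further than with siControl, with a difference of -0.73 ± 0.12 (adjusted p = 0.000407). It fell from a higher level: with siControl PARP1 was at 68.4, 69.7 and 80.7 CPM untreated and 47.8, 52.7 and 55.3 CPM with DXR. Every siMlx DXR library thus lay above every siControl DXR library. The end joining genes PRKDC and XRCC6 fell with a log2 change of -0.77 and -0.65, while XRCC4, which binds DNA ligase IV, rose by 1.07.

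LMNB1, the gene of lamin B1, whose level is known to fall in senescent cells, went from 121, 140.0 and 144 CPM to 11.5, 10.8 and 8.37 CPM (-3.72 ± 0.18, adjusted p = 3.05e-12), and with siControl it fell with a log2 change of -2.64, a difference of -1.08 ± 0.24 (adjusted p = 0.00627). Of 17 lamin and nuclear envelope genes 9 fell (52.9%) and 3 rose (17.6%), where 31.2% of all tested genes fell and 30.9% rose. LBR, the lamin B receptor, fell with a log2 change of -1.80, TMPO, which encodes the LAP2 proteins, by -2.36 and the nesprin gene SYNE2 by -2.31, while the related SYNE1 rose by 1.07. LMNA fell with a log2 change of -0.39. Of 20 topoisomerase and chromatin assembly genes 17 fell. HMGB1, an abundant chromatin protein, went from 732, 789 and 827 CPM to 229, 226 and 204 CPM (-1.83 ± 0.07), HMGB2 fell with a log2 change of -3.17, and EZH2, the methyltransferase of H3K27, by -2.58. HMGA1, an architectural factor, lost the most CPM of all genes, from 3429.9, 3759 and 3736 CPM to 1370.3, 1505 and 1382 CPM.

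Clustered histone genes rose in this poly(A)-selected RNA. Replication-dependent histone transcripts normally end in a stem-loop without a poly(A) tail, so only polyadenylated forms are well captured by an mRNA kit. Of 58 listed genes 53 had an entry and 17 enough counts, of which 11 rose and 1 fell, with a median of 1.56 (siControl 1.13). H2BC12 went from 34.5, 34.03 and 32.6 CPM to 114, 116 and 111 CPM (1.75 ± 0.07), H2BC21 from 3.54, 2.68 and 2.87 to 22.2, 21.7 and 24.3 CPM (2.91 ± 0.15), and the linker histone H1-2 from 12.4, 12.8 and 12.8 to 43.3, 52.6 and 52.4 CPM (1.96 ± 0.11). H2BC21 and H1-2 rose more than with siControl, by 0.83 ± 0.21 and 0.62 ± 0.14 (adjusted p = 0.0119 and 0.00768). Near-identical histone copies can share reads, so values of single histone genes are uncertain.

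Apoptosis genes moved in both directions. Of 26 tested BCL2 family and apoptosis genes 12 rose and 6 fell (median 0.17). BBC3, which encodes the p53-induced activator PUMA, went from 12.6, 10.6 and 7.77 CPM to 31.3, 27.5 and 30.7 CPM (1.53 ± 0.13), the protective BCL2L1 from 204, 216 and 213 to 328, 370.2 and 390.0 CPM (0.78 ± 0.07), and BCL2, also protective, from 12.6, 12.8 and 16.3 to 3.90, 3.58 and 3.46 CPM (-1.93 ± 0.14). The pore-forming effectors responded less with siMlx than with siControl. BAX rose by 0.16 with siMlx and 0.65 with siControl (difference -0.48 ± 0.07, adjusted p = 0.000263), and BAK1 changed by 0.08 (adjusted p = 0.191) and 0.58 (difference -0.49 ± 0.08, adjusted p = 0.000315). Their untreated levels were higher with siMlx: 104 against 69.2 CPM for BAX and 66.7 against 42.8 CPM for BAK1. The siMlx call for BAX was lost without untreated replicate 3 (adjusted p = 0.0602), without DXR replicate 3 (0.0569) and with no filter on low counts (0.0953). BMF, a BH3-only activator, fell from 72.2 to 27.2 CPM with siControl and was at 27.9 and 24.1 CPM with siMlx (difference 1.20 ± 0.13, adjusted p = 6.09e-06). Of 11 death receptor genes 6 rose (54.5%) and 2 fell (18.2%). The TRAIL receptor TNFRSF10B went from 203, 199 and 194 CPM to 454, 429 and 449.5 CPM (1.16 ± 0.05), FAS rose by 1.31 and the inhibitor CFLAR by 1.40. The TRAIL decoy receptor TNFRSF10D rose by 1.35 with siMlx, and with siControl its change of 0.36 did not pass the test (adjusted p = 0.138; difference 0.99 ± 0.28, adjusted p = 0.0262). That difference was lost without any 1 of 5 libraries (adjusted p = 0.0515 to 0.0664).

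Most secreted factor and matrix genes rose. Of 42 tested senescence-associated secreted factors 27 rose and 8 fell (5 without DXR replicate 2; median 0.57), and of 43 extracellular matrix genes 32 rose and 2 fell (median 1.002, siControl 0.68). Genes that gained more CPM than CDKN1A included secreted and matrix genes. FN1, fibronectin, went from 21199, 14953 and 14360.1 CPM to 46492, 38601 and 46689 CPM (1.38 ± 0.13, adjusted p = 3.07e-08), THBS1, thrombospondin 1, from 4210.5, 4059 and 2972 to 11278, 9108 and 10240.1 CPM (1.45 ± 0.16), and SPARC from 1993, 1893 and 1816 to 5837, 5293 and 5542 CPM (1.55 ± 0.07). In these 3 genes every DXR library lay above every untreated one. The basement membrane chains COL4A3 and COL4A4 started low and were among the 10 largest rises of genes at a mean of 5 CPM or more with DXR: COL4A4 went from 2.36, 2.27 and 1.67 to 84.1, 55.8 and 54.8 CPM (4.95 ± 0.30). IGFBP5, which binds insulin-like growth factors, went from 4.38, 2.17 and 0.783 to 104, 64.2 and 58.6 CPM (4.97 ± 0.53), and its relatives IGFBP3 and IGFBP7 rose by 1.85 and 1.90. POSTN, periostin, rose by 3.28.

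The cytokines of this group stayed near the lower end of the counts. IL6 went from 4.10, 2.78 and 3.39 CPM to 7.27, 7.96 and 7.99 CPM (1.18 ± 0.20, adjusted p = 4.18e-05) and the chemokine CCL2 from 2.25, 1.21 and 1.25 to 14.8, 11.3 and 8.97 CPM (2.90 ± 0.29). GDF15 had only 11 counts in the untreated and 16 in the DXR libraries and was not tested. STC1, stanniocalcin 1, fell with siMlx with a log2 change of -0.58, from 162 to 108 CPM, and was at 155 and 159 CPM with siControl (difference -0.62 ± 0.09, adjusted p = 0.000118). TNFRSF11B, the decoy receptor osteoprotegerin, rose by 2.53 with siMlx and 1.11 with siControl (difference 1.41 ± 0.32, adjusted p = 0.00656). Of 24 NF-kB subunits and targets 12 rose (50%) and 3 fell (12.5%), and NFKB2 (log2 0.98) and RELB (1.55) were among those that rose. Of 26 AP-1 and immediate early genes 11 rose (42.3%) and 4 fell (15.4%), with ATF3 at 1.68 and FOSL1 at -1.03. The 4 became 2 without untreated or DXR replicate 2. In the list of epithelial and mesenchymal genes 6 of 19 rose (31.6%) and 5 fell (26.3%), and 3 fell under upper-quartile or RLE scaling. These shares were near the 30.9% and 31.2% of all tested genes. The smooth muscle gene TAGLN of that list rose from 311, 279 and 218 to 2001, 1397 and 1579 CPM (2.62 ± 0.18).

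Interferon-stimulated genes made up 4 of the 10 largest fold rises (OAS1, IFIT1, USP18 and IFI6) among genes at a mean of 5 CPM or more with DXR whose groups did not overlap. Of 57 tested genes 51 rose and none fell, with a median of 1.92 (siControl 1.88). IFIT1, which binds foreign RNA ends, was at 2.53, 2.17 and 2.35 CPM untreated and at 166, 47.8 and 80.2 CPM with DXR (5.38 ± 0.62, adjusted p = 3.62e-07). OAS1, which senses double-stranded RNA, went from 0.112, 0.353 and 0.209 to 27.5, 7.66 and 9.88 CPM, and IFI6 from 4.83, 5.60 and 3.97 to 183, 40.3 and 69.6 CPM. In all 3 genes DXR replicate 1 was the highest, at more than the sum of the other DXR libraries. Over the list, the median of log2(CPM + 1) in that library was 1.97 above the untreated mean, against 0.96 and 1.17 in the other DXR libraries. The added 1 shrinks changes of genes with low CPM, so these values are not on the scale of the fitted fold changes. Without that library 44 of 57 genes rose and the median fitted log2 fold change was 1.58. Genes with less spread between the DXR libraries rose too: TRIM22, an antiviral ligase, went from 19.4, 17.2 and 19.98 to 92.8, 85.1 and 89.1 CPM (2.24 ± 0.17), and STAT2, a subunit of the interferon-activated factor ISGF3, from 16.4, 15.1 and 14.6 to 53.7, 47.3 and 48.4 CPM (1.69 ± 0.16).

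Levels of this list were lower with siMlx than with siControl in both states. IFIT1 was at 216, 79.4 and 56.1 CPM in the untreated siControl libraries and at 725, 522 and 639 CPM with DXR, so all 3 siMlx DXR libraries lay below all 3 siControl DXR libraries. Relative to the untreated siMlx mean, the list's median of log2(CPM + 1) was 1.999, 1.18 and 1.18 in the untreated siControl libraries. It was 3.42, 2.98 and 3.21 in those with DXR. Replicate 1 was the highest of the untreated siControl libraries as well. By the test of the difference 2 of the 57 genes rose more with siMlx and 3 rose less, which is no larger a share than the 6.43% and 5.81% of all tested genes. The 3 became 1 without any 1 of 8 libraries, namely siControl untreated replicates 2 and 3, siMlx untreated replicates 1 and 2, siControl DXR replicates 1 and 3, and siMlx DXR replicates 2 and 3. IRF9, another ISGF3 subunit, went from 9.88, 10.8 and 9.44 to 49.2, 33.8 and 36.7 CPM with siMlx and from 66.4, 47.1 and 40.8 to 73.5, 69.01 and 65.2 CPM with siControl (difference 1.56 ± 0.23, adjusted p = 0.000124). IFIT1 was the other gene with the larger rise (difference 2.96 ± 0.79, adjusted p = 0.0177), a call lost without siMlx untreated replicate 2 (0.0533). With no filter on low counts 15 genes of the list rose more and 12 rose less, and without siControl untreated replicate 1 the number that rose less was 7. ADAR, the RNA editing enzyme, was at 294, 302 and 295 CPM and at 372, 288 and 305 CPM with siMlx, which did not pass the test (0.12 ± 0.10, adjusted p = 0.325), and rose by 0.66 with siControl (difference -0.54 ± 0.14, adjusted p = 0.0148).

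**Figure D3:**
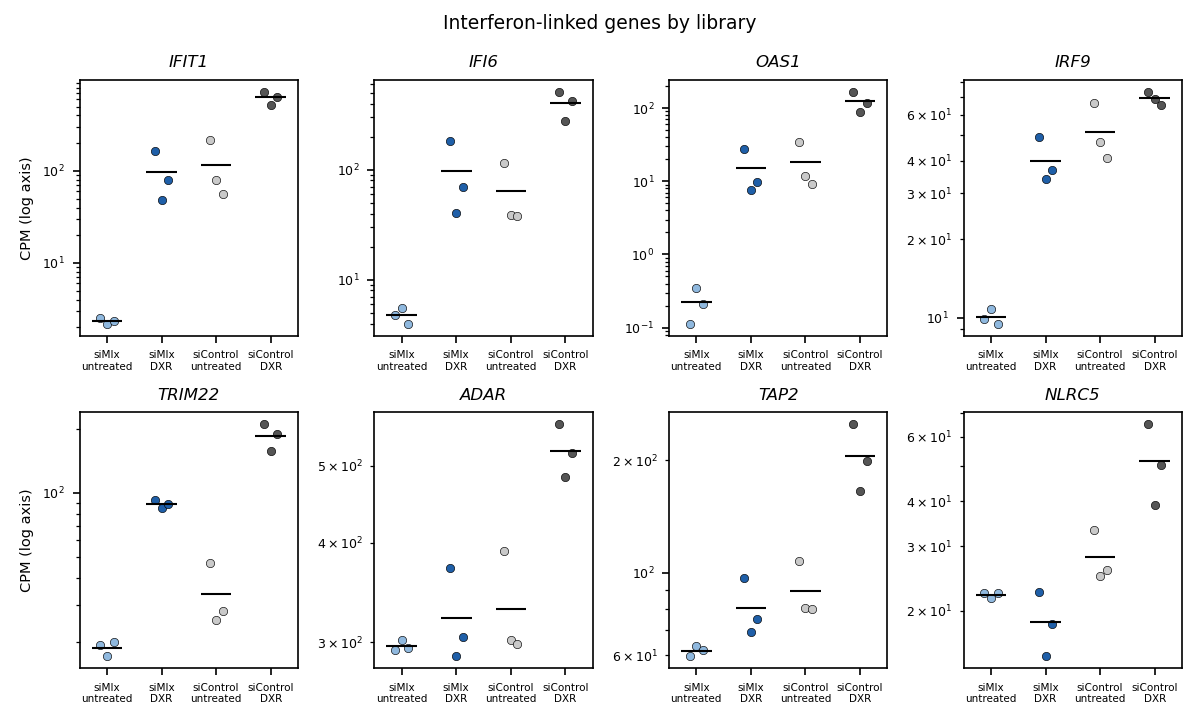
CPM on a log axis of 8 interferon-linked genes in the 3 libraries of each siMlx and siControl group (points, replicates 1 to 3 from left to right) with the group mean (bar). Replicate 1 is the highest siMlx DXR library in all 8 panels, and NLRC5 is at 22.3, 21.7 and 22.3 CPM untreated and 22.4, 14.98 and 18.4 CPM with DXR in the siMlx libraries.

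Antigen presentation rose in part. Of 20 MHC class I genes 11 rose (55%) and 1 fell (5%). The list's median of log2(CPM + 1), relative to the untreated siMlx mean, was 0.612 in DXR replicate 1. It was 0.184 and 0.283 in DXR replicates 2 and 3. The class I heavy chains HLA-B, HLA-E and HLA-C rose by 1.28, 1.03 and 0.83. Their sequences are alike and reads may be shared. NLRC5, the activator of class I transcription, was at 22.3, 21.7 and 22.3 CPM and at 22.4, 14.98 and 18.4 CPM with siMlx (-0.26 ± 0.20, adjusted p = 0.267), and rose from 28.02 to 51.5 CPM with siControl (difference -1.13 ± 0.26, adjusted p = 0.00783). The peptide transporter TAP2 and the immunoproteasome subunit PSMB8 also rose less than with siControl, with differences of -0.82 ± 0.21 and -0.52 ± 0.13 (adjusted p = 0.0142 and 0.0114). TREX1, a DNase that removes cytosolic DNA, fell from 11.3, 12.7 and 13.5 to 8.84, 6.02 and 7.99 CPM with siMlx and rose by 0.43 with siControl (difference -1.16 ± 0.21, adjusted p = 0.00123). The NF-kB inhibitor TNFAIP3 rose by 0.40 and 1.25 (difference -0.85 ± 0.19, adjusted p = 0.00615). The siMlx rises of TAP2 and TNFAIP3 were not stable: TAP2 was at adjusted p = 0.0629 to 0.192 without any untreated library or DXR replicate 1, and TNFAIP3 at 0.0707 and 0.0812 without untreated or DXR replicate 2.

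Promoters are shown for IFIT1 and IFI6, which were among the 10 largest rises. The core word of the interferon-stimulated response element, a pair of GAAA with 2 free bases between them, on either strand and free to overlap, was in 29 of 44 windows and in 3.65% of all windows, but only 44 of the 57 genes (77.2%) had a window, which is under 80%, so this check is void as a statement on the list. Capitals mark the word in the 120 bases before the start.
IFIT1, chr10:89392503-89392622, plus strand: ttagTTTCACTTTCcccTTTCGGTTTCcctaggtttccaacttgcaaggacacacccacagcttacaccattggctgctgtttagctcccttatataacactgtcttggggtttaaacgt
IFI6, chr1:27672193-27672312, minus strand: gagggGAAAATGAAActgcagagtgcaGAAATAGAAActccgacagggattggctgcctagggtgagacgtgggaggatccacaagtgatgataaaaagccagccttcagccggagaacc
Each of the 2 windows holds 2 copies. OAS1, also among the 10 largest rises, holds none in its 120 bases. Of other genes of the list, IRF9, STAT2 and IFIT3 hold none there and ISG15 holds 2.

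Lysosomal genes rose as a group and the autophagy machinery in part. Of 59 tested lysosomal genes 43 rose and 6 fell (median 0.51, siControl 0.38), and 12 of them rose more with siMlx than with siControl while none rose less, where 6.43% of all tested genes were called higher and 5.81% lower. The 12 became 7 without siControl untreated replicate 1 or without siMlx untreated replicate 2. On the list's summed level the arms stood apart only without drug, at 9120 to 9815 CPM with siMlx and 10470 to 11065 CPM with siControl. With DXR it was 13565 to 13968 CPM with siMlx and 13507 to 14062 CPM with siControl. FUCA1, which removes fucose, went from 22.1, 21.7 and 20.3 CPM to 79.7, 78.7 and 81.8 CPM (1.91 ± 0.08), the glucosidase GAA from 24.2, 16.5 and 16.96 to 95.02, 87.2 and 91.2 CPM (2.25 ± 0.10), and the sulfatase ARSB from 15.4, 14.4 and 14.8 to 42.2, 37.1 and 39.00 CPM (1.41 ± 0.07). For ARSB, the lysosomal membrane protein LAMP2 and the activator GM2A the difference from siControl was 0.93 ± 0.09, 0.67 ± 0.10 and 0.73 ± 0.12 (adjusted p = 1.76e-06, 0.000291 and 0.000461). The untreated levels of all 3 were lower with siMlx, and so were their DXR levels: LAMP2 was at 144 and 249 CPM with siMlx and at 313 and 340.0 CPM with siControl.

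Of 45 autophagy machinery genes 24 rose and 9 fell (median 0.26). GABARAPL1, which coats autophagosomes, went from 44.1, 39.2 and 35.2 CPM to 105, 102 and 111 CPM (1.42 ± 0.09), the receptor OPTN rose by 1.23, BECN1 of the PI3-kinase complex by 0.84 and ATG13 of the initiating kinase complex by 0.82. RUBCN, which encodes Rubicon, an inhibitor of late autophagy steps, went from 14.3, 13.9 and 14.5 CPM to 24.1, 21.5 and 23.9 CPM (0.70 ± 0.11, adjusted p = 1.06e-05), and its response did not pass the test of the difference from siControl (0.15 ± 0.14, adjusted p = 0.546). For 8 genes the response was higher with siMlx (6.43% of all tested genes), and for 5 without siControl untreated replicate 2, siControl DXR replicate 1 or siMlx DXR replicate 2. SQSTM1, which encodes the receptor p62, rose from 688, 677 and 695 to 918, 967 and 900.0 CPM, while with siControl it was at 857 and 844 CPM (difference 0.46 ± 0.07, adjusted p = 0.000287). ATG2B, a lipid transfer protein, rose by 0.32 with siMlx and fell with a log2 change of -0.31 with siControl (difference 0.63 ± 0.09, adjusted p = 0.000125).

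Of 11 genes of the TFEB family and its folliculin regulators 5 rose (45.5%) and none fell. Among all tested genes 30.9% rose and 31.2% fell. TFEB, a master regulator of lysosomal genes, went from 4.27, 4.59 and 5.01 CPM to 8.61, 7.76 and 8.75 CPM (0.85 ± 0.11, adjusted p = 1.96e-06). MCOLN1, a lysosomal calcium channel, rose by a log2 of 0.56 and TFE3 by 0.20, a call lost without DXR replicate 3 (adjusted p = 0.0641). FNIP2, a partner of folliculin, rose by 0.36 with siMlx and fell with siControl, with a difference of 0.68 ± 0.13 (adjusted p = 0.00148).

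Genes of mitochondrial ribosomal proteins mostly fell, by small steps, and other mitochondrial lists were mixed. Of 33 genes of mitochondrial dynamics, biogenesis and mitophagy 18 fell and 7 rose (median -0.20), of 76 oxidative phosphorylation subunits 29 fell and 14 rose (median -0.08), where 31.2% of all tested genes fell and 30.9% rose, and of 72 mitochondrial ribosomal protein genes 60 fell and 1 rose (median -0.36). BNIP3L, which encodes the mitophagy receptor NIX, went from 52.5, 59.2 and 59.4 CPM to 142, 163 and 163 CPM (1.45 ± 0.07, adjusted p = 1.74e-12). With siControl it was at 256 and 331 CPM, and the difference between the responses was 1.08 ± 0.09 (adjusted p = 2.77e-07). PINK1, the kinase that marks damaged mitochondria, rose from 16.1, 16.7 and 14.8 to 30.3, 29.8 and 30.9 CPM (0.94 ± 0.08; difference 0.65 ± 0.11, adjusted p = 0.000878). The related receptor BNIP3 did the reverse, at 75.6, 89.4 and 88.6 CPM and then 70.4, 69.5 and 66.8 CPM (-0.30 ± 0.06), and rose by 0.31 with siControl (difference -0.60 ± 0.09, adjusted p = 0.000114). TFAM, which packages mitochondrial DNA, fell with a log2 change of -0.68, and the complex I genes NDUFS1 and NDUFA4 changed by -0.55 and 0.58.

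PRDX3, the mitochondrial peroxiredoxin, went from 254, 273 and 283 CPM to 181, 178 and 173 CPM (-0.61 ± 0.05, adjusted p = 3.82e-09). The fall was deeper than with siControl, with a difference of -0.31 ± 0.07 (adjusted p = 0.00724), and with siMondoA the change was 0.20 (difference -0.81 ± 0.07, adjusted p = 2.61e-07). Levels of PRDX3 were lower with siMondoA than with siMlx in both states, at 63.9, 64.6 and 58.8 CPM untreated and 75.0, 69.5 and 71.4 CPM with DXR. Of 38 peroxiredoxin, thioredoxin and NRF2 target genes 15 rose and 12 fell (39.5% and 31.6%), where 30.9% of all tested genes rose and 31.2% fell. FTH1, the ferritin heavy chain, went from 869, 949 and 948 CPM to 1480.4, 1618 and 1377 CPM (0.69 ± 0.07), while with siControl it was at 2004 and 1842 CPM (difference 0.82 ± 0.10, adjusted p = 2.69e-05). NQO1, a quinone reductase that also acts on doxorubicin, fell with a log2 change of -0.53 with siMlx and -1.14 with siControl (difference 0.61 ± 0.10, adjusted p = 0.000323).

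Among the listed targets of the glucose-sensing dimers 5 of 16 tested genes rose and 4 fell, shares near those of all genes, and TXNIP and ARRDC4 rose from very low levels. TXNIP, an arrestin that limits glucose uptake, was at 1.18, 2.22 and 3.13 CPM untreated and at 6.40, 13.3 and 8.64 CPM with DXR (2.11 ± 0.30, adjusted p = 5.39e-06). With siControl it was at 10.9, 10.9 and 17.6 and 52.5, 66.7 and 69.8 CPM, so the siMlx libraries lay below the siControl libraries in both states, and the difference between the responses was -0.14 ± 0.39 (adjusted p = 0.869). ARRDC4, its relative, was at 0.168, 0 and 0.0522 CPM and 1.74, 1.89 and 0.486 CPM. HK2, hexokinase 2, fell from 76.5, 77.7 and 69.9 to 52.9, 53.2 and 62.8 CPM with siMlx and rose by 0.51 with siControl (difference -0.92 ± 0.14, adjusted p = 0.000164). Among MLX's network relatives 3 of 11 rose and 3 fell, 27.3% each way and near the shares of all genes. MXI1 and MXD4, repressors that pair with MAX, rose by 1.32 and 0.96, and MXD3 fell with a log2 change of -2.35.

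In glycolysis 7 of 27 genes rose and 11 fell (25.9% and 40.7%), where 30.9% of all tested genes rose and 31.2% fell. ENO1, enolase, was 1 of the 5 genes that lost the most CPM, from 2699.6, 2961 and 2972 CPM to 1411, 1497 and 1431 CPM (-0.99 ± 0.06), and PFKP and GPI fell with a log2 change of -0.68 and -0.50. The bifunctional PFKFB enzymes, which set the level of fructose 2,6-bisphosphate, split: PFKFB2 rose by 1.82 and PFKFB4 fell with a log2 change of -0.78, and both differed from siControl (by 1.05 ± 0.20 and -0.74 ± 0.12, adjusted p = 0.00151 and 0.000457). GAPDH, also among those 5, changed by only -0.15, a call lost in 6 of the settings tried. Of 28 HIF targets 12 rose and 8 fell (42.9% and 28.6%), with EPAS1 at 1.59 and ANGPTL4 at 2.28.

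Transcripts of ribosome biogenesis genes fell, and those of ribosomal proteins moved in both directions. Of 40 genes of ribosome biogenesis and RNA polymerase I 36 fell and 1 rose (median -0.53, siControl -0.34), and 17 fell more with siMlx than with siControl, where 5.81% of all tested genes were called lower. The 17 became 7 to 11 without any of siControl untreated replicate 2, siMlx untreated replicate 2, siControl DXR replicates 1 and 3, or siMlx DXR replicates 1 and 2. The arms stood apart mainly without drug. The summed level of the list was 4744 to 4936 CPM with siMlx and 3850 to 3999 CPM with siControl untreated. With DXR it was 3050 to 3173 CPM with siMlx and 2908 to 3112 CPM with siControl. FBL, fibrillarin, went from 120.3, 130.2 and 128 CPM to 44.6, 46.4 and 46.2 CPM (-1.47 ± 0.06), WDR12 and NCL, nucleolar proteins, fell with log2 changes of -1.11 and -0.81, and the RNA helicase DDX21 fell with a log2 change of -0.60 (difference -0.41 ± 0.09, adjusted p = 0.00386). Of 77 cytosolic ribosomal protein genes 24 rose (31.2%) and 13 fell (16.9%), and 8 fell without DXR replicate 1. Among all tested genes 30.9% rose and 31.2% fell, so the share that rose was no larger than that of all genes. The median of this list was 0.06, with a range from -0.45 for RPSA to 0.61 for RPL35A. Of 38 ATF4 targets and tRNA synthetases 20 fell and 10 rose: PHGDH, the first enzyme of serine synthesis, fell with a log2 change of -1.37 and the amino acid transporter subunit SLC3A2 rose by 1.02. Of 26 endoplasmic reticulum chaperone and stress genes 13 rose and 8 fell, and EDEM1, which sorts misfolded glycoproteins for degradation, rose from 28.7, 31.1 and 34.2 to 68.4, 62.3 and 54.1 CPM while it was at 81.1 and 84.98 CPM with siControl (difference 0.91 ± 0.13, adjusted p = 9.94e-05). Of 31 sterol and fatty acid synthesis genes 11 rose and 5 fell (35.5% and 16.1%). Of 31 interferon receptor, JAK-STAT and nucleic acid sensor genes 17 rose and 8 fell (54.8% and 25.8%).

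The largest single changes lay partly outside these lists. SULF2, which trims heparan sulfate, was at 0, 0.0505 and 0.0522 CPM untreated and at 5.93, 7.76 and 9.99 CPM with DXR (7.58 ± 0.54, adjusted p = 4.62e-10), and CLCA2, a p53-induced membrane protein, at 0.674, 0.303 and 0.209 and 12.6, 17.2 and 15.99 CPM (5.28 ± 0.31). Both had so few counts without drug that the size of the fold is loosely set. SOX11, a transcription factor of progenitor cells, had the largest fall among genes at a mean of 5 CPM or more without drug, from 9.94, 10.7 and 9.39 CPM to 0.64, 0.398 and 0.324 CPM (-4.46 ± 0.23), and its fall with siControl was -4.42. NEURL1B, a ubiquitin ligase for Notch ligands, went from 7.02, 9.74 and 11.2 to 0.64, 0.647 and 0.54 CPM (-3.93 ± 0.32). The tubulin genes TUBA1B and TUBB, with GAPDH, ENO1 and HMGA1, completed the 5 largest losses of CPM (-1.33 and -0.64).

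Across all genes the responses with siMlx and siControl differed for 1675 of 13676 genes by the test of the difference, 880 higher with siMlx (6.43%) and 795 lower (5.81%). Of the genes called with siMlx, 6183 were called in the same direction with siControl, 72.8% of the siMlx calls and 79.7% of the siControl calls. Among the 1675, a rise was larger with siMlx for 469 and a fall was larger for 458, while a rise was smaller for 129, a fall was smaller for 68, and 142 were called in opposite directions. Without siMlx DXR replicate 1 the difference was called higher for 943 and lower for 502, so the share of higher calls went from 52.5% to 65.3%.

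**Figure D4:**
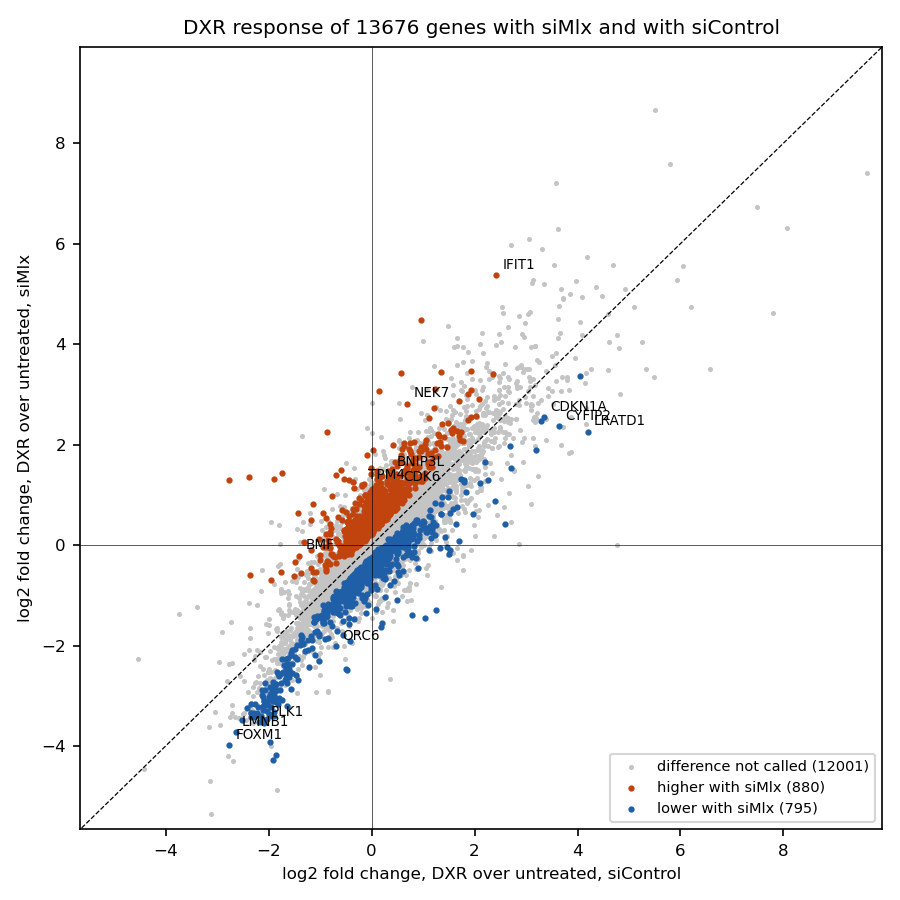
Log2 fold change of DXR over untreated for each of 13676 genes with siControl (x axis) and siMlx (y axis), with the line of equal response dashed. Orange points are the 880 genes whose response was called higher with siMlx and blue points the 795 called lower, and the Pearson correlation is 0.867.

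The untreated level went with the direction of the difference. Of the 880 genes with the higher response 868 (98.6%) had a lower mean in the untreated siMlx libraries than in the untreated siControl libraries, and of the 795 with the lower response 100 (12.6%) did, against 47.5% of all tested genes. The untreated siMlx libraries enter both quantities, so this is a description of how the 4 groups stand and no separate evidence. With DXR the siMlx level was still lower than the siControl level for the first set, by a median log2 of -0.21, after -0.74 without drug, and for the other set the medians were 0.43 without drug and 0.01 with it.

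NEK7, a kinase of mitosis that also serves the NLRP3 inflammasome, had the fourth largest called difference upward among genes at a mean of 5 CPM or more in any group. It was at 19.6, 20.6 and 21.03 CPM in the untreated siMlx libraries, at 124, 147 and 160.1 CPM with DXR, and at 187, 163 and 169.9 and 248, 274 and 321 CPM with siControl (difference 2.12 ± 0.17, adjusted p = 1.81e-07). All 6 siMlx libraries lay below all 6 siControl libraries. BEX4 and LMOD1, which encodes the actin nucleator leiomodin 1, differed by 2.09 ± 0.29 and 1.87 ± 0.29. On the other side BATF3, a transcription factor of dendritic cells, was higher without drug with siMlx (6.24 against 1.90 CPM) and fell to 1.12 CPM (difference -1.96 ± 0.44, adjusted p = 0.00632). CDC25C and ESCO2, of mitotic entry and sister chromatid cohesion, fell deeper with siMlx, with differences of -1.56 ± 0.37 and -1.51 ± 0.30.

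Opposite directions were called for 99 genes at 5 CPM or more that rose with siMlx and fell with siControl, and for 39 with the reverse. TPM4, a tropomyosin, was at 337, 329 and 335 CPM and then 813, 711 and 759 CPM with siMlx, and at 1514, 1465 and 1353 and then 1342, 1176 and 1288 CPM with siControl (difference 1.37 ± 0.09, adjusted p = 4.17e-08). The 2 arms approached each other but did not meet. The phosphatase CTDSP2, the kinase HIPK1, the phosphoinositide-binding PLEKHA1 and MRFAP1 were also in this group, with differences of 0.85, 0.81, 1.02 and 0.83. The reverse group was led by PXN, the focal adhesion protein paxillin, which fell from 441, 440.4 and 438 to 367, 379.7 and 398 CPM with siMlx and rose from 132, 135 and 147 to 229.6, 234 and 244 CPM with siControl (difference -0.98 ± 0.07, adjusted p = 5.12e-08), and also held the translation factor subunit EIF2S3, CDC42SE2, the kinase AKT2 and the mitochondrial phosphatidylserine decarboxylase PISD (-0.58, -1.12, -0.59 and -0.78).

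**Figure D5:**
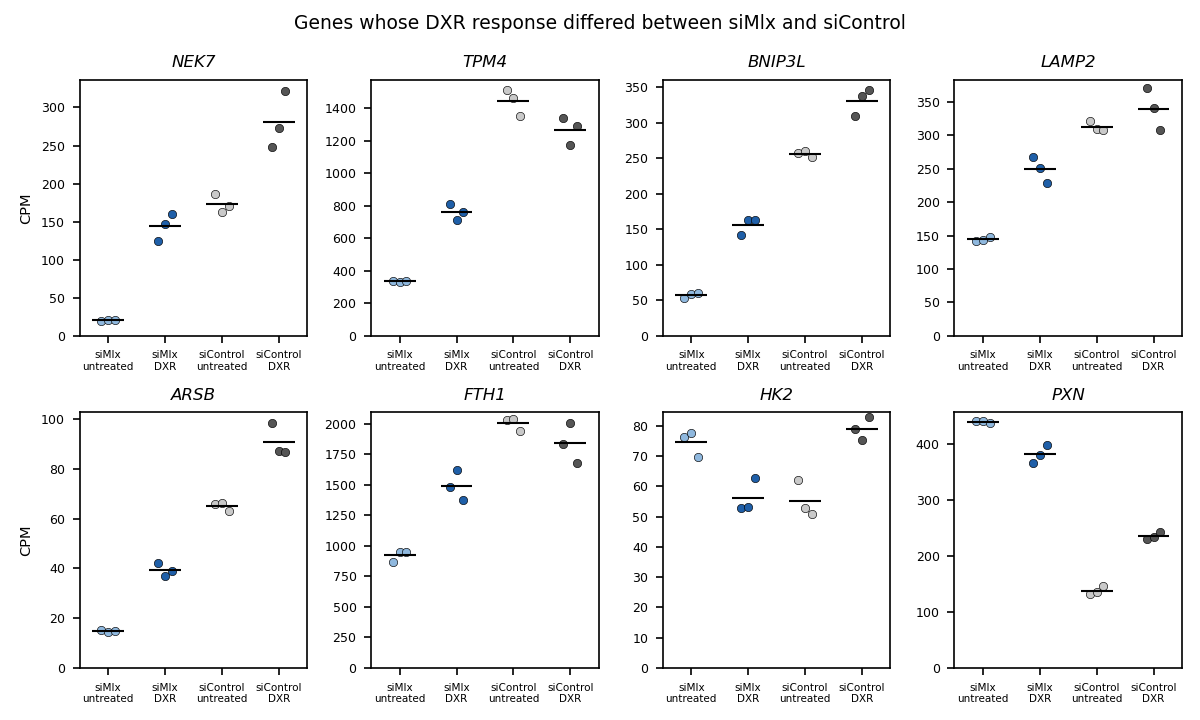
CPM of 8 genes whose DXR response differed between the siRNAs, in the 3 libraries of each group (points) with the group mean (bar), on axes that start at 0. For NEK7, TPM4, BNIP3L, LAMP2, ARSB and FTH1 the untreated siMlx libraries are the lowest of the 4 groups, and for PXN they are the highest, at 438 to 441 CPM.

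Against the MondoA arm the siMlx response differed for more genes, 1960 higher (14.3%) and 2047 lower (15%), and the Pearson correlation of the responses across genes was 0.757. The interferon list stood on the lower side: 26 of its 57 genes rose less with siMlx than with siMondoA and 1 rose more, with a median difference of -0.84. MX1, an antiviral GTPase, was at a mean of 0.313 CPM untreated and 1.01 CPM with DXR under siMlx, and at 0.458 and 20.99 CPM under siMondoA (difference -3.75 ± 0.95, adjusted p = 0.00545, and 0.0549 without siMlx untreated replicate 2). BATF2 and LGALS9 differed by -3.76 ± 0.77 and -3.32 ± 0.96 (adjusted p = 0.00105 and 0.0132), and the LGALS9 call was lost without siMlx untreated replicate 1 (0.134). Replication genes also fell more with siMlx, for 49 of 52 genes, and so did 40 of 61 mitosis genes (18 without siMondoA DXR replicate 2), while 27 of 59 lysosomal genes rose more and 1 rose less. Untreated siMondoA libraries already stood lower on the replication and mitosis lists. Relative to the untreated siMlx mean, the mitosis median of log2(CPM + 1) was -1.70, -1.49 and -0.91 in the untreated siMondoA libraries. It was -3.49, -2.92 and -3.18 in those with DXR, below the siMlx DXR libraries. The replication median was -1.47, -1.43 and -1.02 untreated and -2.02, -1.74 and -1.96 with DXR under siMondoA, and -1.77, -1.74 and -1.84 with DXR under siMlx. WNT11 and the vesicle priming gene UNC13A rose more with siMlx than with siMondoA, by 2.63 ± 0.57 and 3.08 ± 0.84 (adjusted p = 0.00165 and 0.00899). Both started near 0 with siMlx and stayed below siMondoA in both states. WNT11 was at 0.168, 0.505 and 0 CPM and then 3.43, 2.14 and 3.13 CPM with siMlx. With siMondoA it was at 4.01, 4.15 and 2.60 CPM and then 7.36, 7.60 and 6.72 CPM. UNC13A was at 0.056, 0.151 and 0.157 and then 1.28, 1.94 and 3.51 CPM with siMlx. With siMondoA it was at 3.90, 3.36 and 0.846 and then 5.61, 4.61 and 6.94 CPM. The WNT11 difference was 4.05 without siMlx untreated replicate 2, which held most of its untreated counts.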

How the data were processed

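RNA was sequenced from 18 RPE-1 libraries in 6 groups of 3. The authors deposited 1 table with a read count and an RPKM value for each of 33121 genes and 18 libraries. Per the labels' protocols, total RNA was made into libraries with a TruSeq stranded mRNA kit, and per the submitters' processing notes bcl2fastq, TopHat2 2.1.1 and the GRCh38 build were used. Which tool counted the reads, on which annotation and with which strand setting, is not given in the sources used here, so overlapping, antisense and near-identical genes cannot be separated from one another by these counts. The deposited RPKM values gave gene lengths, which were whole within 0.01 bases for 24845 of 24846 genes with a count. No gene encoded by mitochondrial DNA is in the count table, and 7926 names, with 0.297% of the counts, matched no current or older symbol.

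Counts were fitted with edgeR 4.0.16 in R 4.3.3 (TMM scaling, filterByExpr by group, quasi-likelihood test, 1 mean per group over all 18 libraries, 12 residual degrees of freedom, biological coefficient of variation 7.4%), with Benjamini-Hochberg adjustment over 13676 genes and a threshold of 0.05. CPM values use TMM-scaled library sizes. The difference between 2 responses is a contrast of the same fit. Totals of 15503423 to 29219280 counts per library set the precision of low genes. Alternatives were DESeq2 1.42.0, other scalings and filters, a replicate block, fewer groups and leaving out each library, and those applied to list counts beyond scaling were chosen after seeing the data.

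The comparison, its 42 gene lists and the naming rule were chosen with earlier results of these data known. Named genes are a fixed panel, the 10 largest fold changes each way (at 5 CPM or more, groups not overlapping), the 5 largest CPM changes each way, up to 4 genes per list by smallest p and up to 3 by smallest p of the difference from siControl, the largest differences between arms, up to 6 genes each way called in opposite directions, and members of lists of at most 20 genes. Some genes that the rule names are not reported here. List counts carry no test of the list.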

Additional observations from a re-analysis of the deposited data

Results flagged for a closer look

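The DXR response differed between arms by the test of the difference itself for 880 genes higher and 795 genes lower with siMlx than with siControl, and for 1960 higher and 2047 lower with siMlx than with siMondoA.

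Of the largest differences upward against siControl, the signal recognition particle RNA genes RN7SL2 and RN7SL1 led with 4.07 and 3.73 on the log2 scale. RN7SL2 was at 0.898, 1.72 and 1.25 CPM untreated and 0.989, 2.39 and 6.21 CPM with DXR in the siMlx libraries, and at 7.76, 14.7 and 5.55 and 1.22, 1.38 and 1.44 CPM with siControl. Its rise with siMlx was lost without DXR replicate 3 (0.41, adjusted p = 0.489 by edgeR), as was that of RN7SL1 (0.77, adjusted p = 0.132). Both are near-identical copies that can share reads, and RNA without a poly(A) tail reaches an mRNA library only in part. RN7SK, another such RNA, differed by 1.96. IFIT1 differed by 2.96, NEK7 by 2.12, BEX4 by 2.09, LMOD1 by 1.87 and SYT12 by 1.85.

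Downward against siControl, NEURL1B differed by -1.96, BATF3 by -1.96, LRATD1 by -1.94, CDC25C by -1.56, ESM1 by -1.52, TRIM69 by -1.52, ESCO2 by -1.51 and TOX by -1.49. The LRATD1 call was lost without siControl untreated replicate 1 (adjusted p = 0.0655 by edgeR).

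Genes called in opposite directions in the 2 arms differed by 1.37 for TPM4, 0.85 for CTDSP2, 0.83 for MRFAP1, 1.02 for PLEKHA1 and 0.81 for HIPK1, and by -0.98 for PXN, -0.58 for EIF2S3, -1.12 for CDC42SE2, -0.59 for AKT2, -0.78 for PISD and -0.60 for BNIP3.

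Against siMondoA the responses of UNC13A, TNFRSF11B, WNT11, LMOD1 and TTC29 were higher with siMlx by 3.08, 2.86, 2.63, 2.39 and 2.33, and those of GBP4, BATF2, MX1, ISG20 and LGALS9 lower, with differences of -5.68, -3.76, -3.75, -3.41 and -3.32. The GBP4 call was lost in 10 of the settings tried (adjusted p = 0.0501 to 0.191 by edgeR), and the ISG20 call without siMlx untreated replicate 2 (0.0864).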

How the results depend on the processing

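The counts of genes that rose and fell with siMlx were within 1.5 times the reported ones in every alternative run, at 3918 to 4418 and 3795 to 4386, and no scaling moved the median of all genes by over 0.1. Without siMlx DXR replicate 1 the genes with a lower response than siControl were 502, and over all libraries left out in turn they were 502 to 872. No named gene called by the test reversed direction in any alternative. List counts that moved by over 1.5 times were as follows. With no filter on low counts 28 replication genes had a lower response than with siControl, and 15 interferon-stimulated genes had a higher and 12 a lower one; with DESeq2 4 had a higher one. Under upper-quartile scaling, RLE scaling and a filter of 1 CPM in 3 libraries 3 epithelial-mesenchymal genes fell, and 3 lysosomal genes fell under a replicate block with only the siMlx groups. Leaving out each library in turn, the lower responses against siControl numbered 5 to 27 for replication, 24 to 53 for mitosis, 7 to 16 for ribosome biogenesis and 1 to 7 for interferon-stimulated genes, and the higher ones 7 to 15 for lysosome, 5 to 10 for autophagy, 2 to 6 for p53 targets and 1 to 3 for interferon-stimulated genes. Against siMondoA 18 to 57 mitosis genes had a lower response. With siMlx alone, genes that fell numbered 2 to 5 for AP-1, 8 to 17 for cytosolic ribosomal proteins, 3 to 4 for the epithelial-mesenchymal list and 5 to 8 for secreted factors. The cause of these moves was not tested. List counts under 4 with siMlx were not followed through the alternatives.

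Over all genes the replicate numbers gave no clear pairing of untreated with DXR libraries within the siMlx arm. Same-numbered siMlx libraries had correlations of their deviations of 0.059, -0.086 and 0.021, and libraries with unlike numbers -0.165 to 0.161. In the siControl arm same-numbered libraries had 0.147, 0 and 0.071, and libraries with unlike numbers -0.149 to 0.087. Single genes differed: IGFBP5 kept its replicate order with DXR in both arms, and FOXM1 kept it in neither. The main fit holds no replicate term. Untreated siMlx replicates 2 and 3 correlated best with DXR replicates 1 (0.122) and 2 (0.161). Same-numbered libraries of different arms were not compared in this way and may share a replicate effect. Medians of log2(CPM + 1) on the mitosis list were taken relative to the untreated siMlx mean. Untreated replicate 3 had the highest of its group with siMlx (0.19), siControl (0.211) and siMondoA (-0.908). With a replicate block the response was higher than with siControl for 1098 genes and lower for 1027, within 1.5 times the reported counts. Genes with few counts, such as SULF2, ARRDC4 and MX1, are limited most by depth.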
